A study of Caenorhabditis elegans with 2 samples.

Results

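The core programmed cell death genes of the nematode Caenorhabditis elegans are ced-3, ced-4, ced-9, egl-1 and ced-13. These 5 genes, chosen by name for their part in the pathway, were examined among 19973 protein-coding genes for binding of LIN-35, the worm's Rb-family pocket protein. Chromatin immunoprecipitation with sequencing (ChIP-seq) had been done on whole L1 larvae (the first larval stage, of both sexes, of unknown age) of strain YL409, in 1 group of 2 biological replicates. These animals carry unc-119(ed3) and the transgene vrIs60, in which lin-35's own promoter and 3′UTR flank a LIN-35 coding sequence tagged with GFP and FLAG, beside a working unc-119 copy. The antibody is labelled only as lin-35. An untagged, mutant or later-stage group was not analysed here, so the comparisons below set the 5 genes beside all protein-coding genes and replicate 1 beside replicate 2, and no test between groups was possible. A peak was assigned to a gene when its summit lay within 1000 bp of the gene's 5′ end, inside the gene, or, for an operon gene, within 1000 bp of the operon's start.

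In this pathway the BH3-only protein EGL-1 binds CED-9, the worm's Bcl-2 protein, which otherwise holds the Apaf-1-like protein CED-4. Released CED-4 activates CED-3, the caspase that kills the cell. CED-13 is another BH3-only protein, known for its transcription after DNA damage under the p53-like factor CEP-1. Genetic work in C. elegans has placed Rb and E2F/DP genes upstream of germ cell death, with ced-9 described as a gene that lin-35 holds down and ced-3 and ced-4 as genes that E2F activity supports. L1 larvae consist mainly of somatic cells and hold few germ cells, and which cells carried a bound site was not measured. A weak signal from all cells and a strong signal from a few cannot be told apart in whole animals.

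Of the 5 genes, ced-9 alone had a peak on the authors' list thresholded by irreproducible discovery rate (IDR), a measure of agreement between replicates, and only through the start of its operon. Over all protein-coding genes 4082, or 20.4%, had such a peak under the same rule, so 1 of 5 is about the background share. IDR summits also lay upstream of ced-3, at 1949 bp, and of ced-4, at 2003 bp, both outside the 1000 bp of the rule. No IDR summit lay within 5000 bp upstream of egl-1 or ced-13. The genes for the caspase, its activator and the Bcl-2 protein thus each had an IDR summit at most 2003 bp upstream, and the BH3-only genes had none there. Of all protein-coding genes 19.8% had an upstream IDR summit nearer than the 2003 bp of ced-4, so having none that near is the common state. The ced-9 and ced-4 summits also lay nearer to other gene starts, 124 bp from jmjd-4 and 185 bp from F26A1.1. The split between the death genes was seen after the values, and no test of it was made.

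The sequences at the 3 summits are shown because these are the IDR summits nearest upstream of the pathway's genes. Each is 30 bases of the plus strand of WBcel235 (ce11) from the RefSeq assembly, centred on the pooled summit, with nothing marked.
ced-9, operon start, chrIII:10334128-10334157: tgctgacgcatctcttcaaacgagacgcgc
ced-3, upstream, chrIV:13206072-13206101: ctgagtgtggaggtcaatggagcgcgtttg
ced-4, upstream, chrIII:4850308-4850337: atgtgtttctgtgcaaacactcgacggctt
The ced-9 and ced-3 windows held 56.7% G and C each and the ced-4 window 46.7%. Over 301 bp around the summits the shares were 37.5%, 37.9% and 31.6% at ced-9, ced-3 and ced-4, and the median over all IDR summits was 39.9%.

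**Figure D1:**
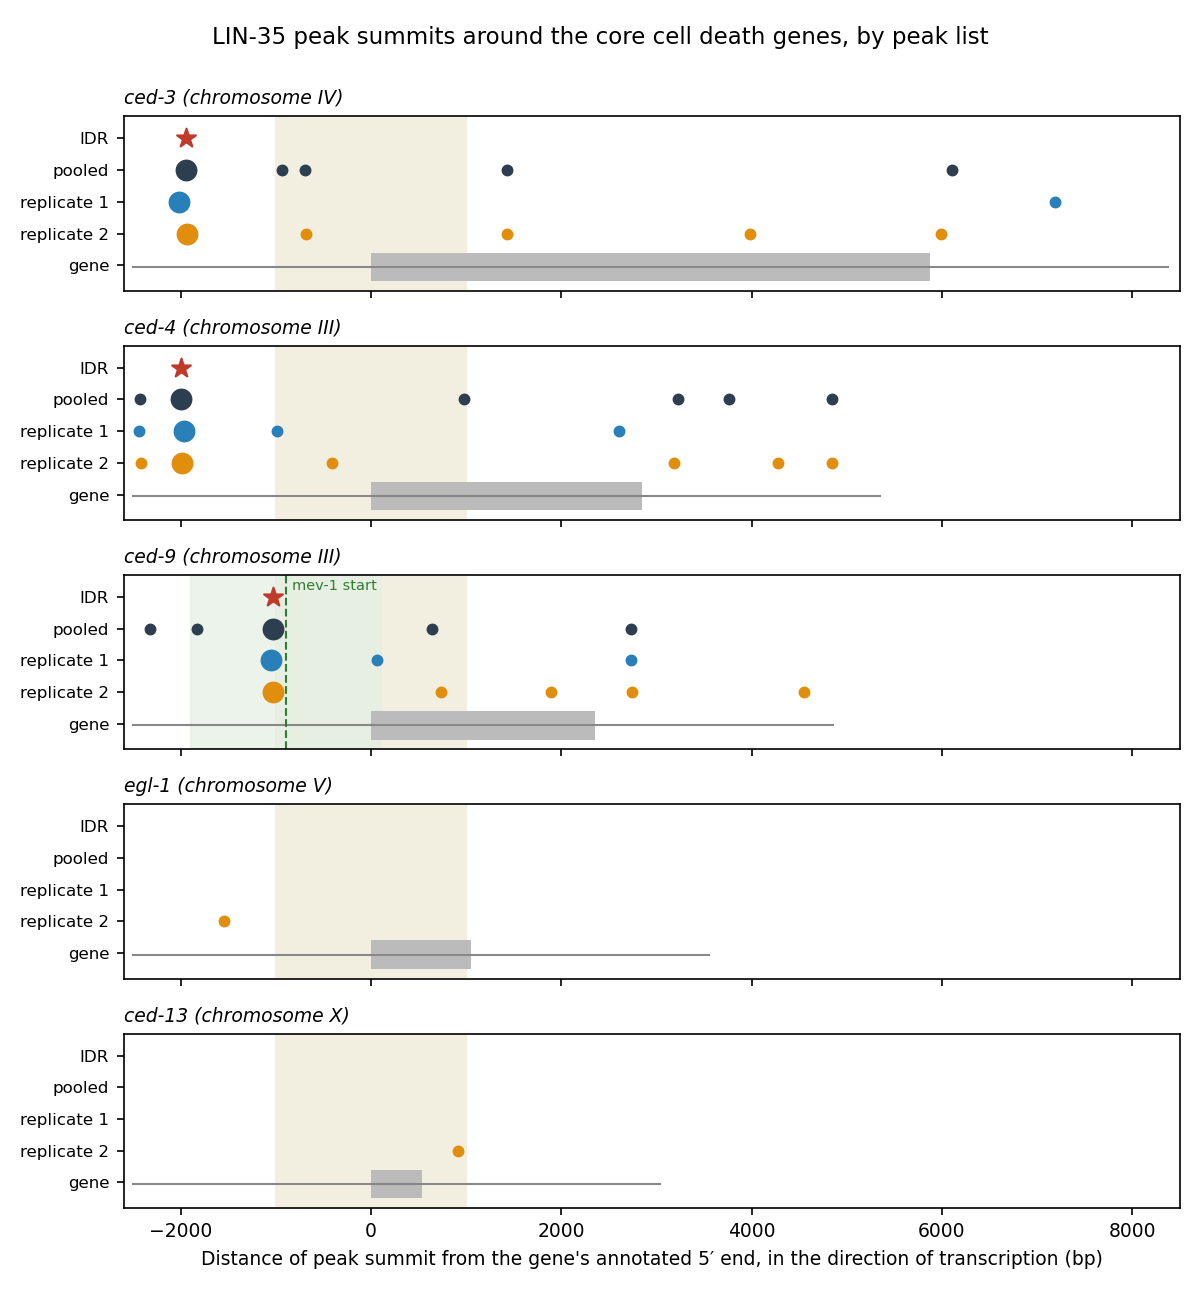
Peak summits around each gene by peak list. The x axis is the distance from the annotated 5′ end in bp, grey boxes are genes, thin lines the stretch searched, cream shading the 1000 bp window, green shading the same window around the operon start of ced-9, stars IDR peaks and large circles peaks in the strongest 10% of their list. Strong summits stood at 1030 bp upstream of ced-9, 1949 bp upstream of ced-3 and 2003 bp upstream of ced-4, and none stood near egl-1 or ced-13.

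ced-9, the inhibitor of the pathway, had the strongest peak of the 5 genes. ced-9 (WBGene00000423, chromosome III, 10335172 to 10337522, plus strand) begins 4 bp after the end of mev-1, which encodes a succinate dehydrogenase subunit, and both genes are known to be transcribed as an operon. The peak (chromosome III, 10334019 to 10334270) lay between genes, with its summit 135 bp upstream of mev-1 and 1030 bp upstream of ced-9 itself. Its signal was 66.0 in replicate 1 (rank 938 of 23861 peaks), 319 in replicate 2 (rank 467 of 30000) and 398 in the pooled list (rank 537 of 30000). Both replicates thus placed it high, within the strongest 3.93% and 1.56% of their peaks, and by pooled signal it was also rank 537 of the 3838 IDR peaks. The signal scales differ between the lists, so the values show no difference between replicates. The summits of the replicates lay 22 and 0 bp from the pooled summit.

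The ced-9 peak lay between genes that run in opposite directions. The gene jmjd-4, a JmjC domain gene on the minus strand, begins 124 bp on the other side of the summit, nearer than mev-1. Whether the peak belongs to the operon or to jmjd-4 cannot be told apart. Operons were set here by a gap of at most 100 bp. Under that limit 285 of the 4082 genes with an IDR peak had it solely through an operon start. ced-9 was 1 of them.

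At the ced-9 record itself the signal was weak. Within the gene the pooled list held a peak in an intron 642 bp from the 5′ end (signal 10.6, rank 25207, −log10 q 0.14), and the IDR peaks all had a −log10 q of 3.92. Replicate 1 had a summit in the coding sequence 58 bp from the 5′ end at rank 22350 of its 23861 peaks. Replicate 2 had summits 737 and 1892 bp from the 5′ end, at ranks 14441 and 23859. None of these positions was shared between the replicates. A further weak pooled peak of signal 12.6 lay in a coding exon of jmjd-4, 678 bp from the start of that gene.

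jmjd-4 and mev-1 share the ced-9 peak and so have its ranks. Of genes with another peak, those most like ced-9 in rank over the pooled list and both replicates were spr-2 and smo-1. For spr-2, a chromatin-related gene found as a suppressor of presenilin loss, the ranks were 546 pooled, 913 in replicate 1 and 463 in replicate 2 (summed absolute log2 rank difference 0.08). For smo-1, the worm's SUMO gene, they were 583, 912 and 517 (difference 0.31). The measure rests on 2 replicates and their pool. It was taken over 3874 genes with a peak within 500 bp of the 5′ end that was matched in all 3 lists. The ced-9 summit, 1030 bp from the gene's own 5′ end, does not meet that condition.

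The nearest IDR peak to ced-3, the caspase, lay far upstream and outside the rule. ced-3 (WBGene00000417, chromosome IV, 13198261 to 13204137, minus strand) lay downstream of an IDR peak at 13205974 to 13206167. The summit of that peak was 1949 bp upstream of the 5′ end and between protein-coding genes. Its signal was 27.0 in replicate 1 (rank 2178), 143 in replicate 2 (rank 1201) and 169 in the pooled list (rank 1394), and 36.3% of IDR peaks were stronger. The summit was found in both replicates, 65 and 17 bp from the pooled one. Of all protein-coding 5′ ends, that of ced-3 was the nearest to it. On the other side the next annotations were a pseudogene, WBGene00044909, 697 bp away and the 3′ end of C48D1.9 1306 bp away, both on the minus strand.

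Nearer to ced-3 there were weak peaks alone. The pooled list had an intronic summit 1434 bp inside the gene (signal 13.4, rank 18184, −log10 q 0.28) and summits 691 and 941 bp upstream (signals 12.4 and 10.3, ranks 20339 and 26248). Replicate 2 held the intronic summit at rank 29600, the one at 682 bp upstream at rank 24672, and a further one 3987 bp inside the gene at rank 26632. Replicate 1 held none within the rule. These peaks therefore have no replicate check, and the strongest of them stood at 60.6% of the way down the pooled list.

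The IDR peak upstream of ced-4, the caspase activator, lay outside the rule and nearer to other gene starts. ced-4 (WBGene00000418, chromosome III, 4852325 to 4855171, plus strand) lay downstream of an IDR peak at 4850270 to 4850420, whose summit was 2003 bp upstream of ced-4. Its signal was 46.0 in replicate 1 (rank 1346), 88.0 in replicate 2 (rank 2002) and 138 in the pooled list (rank 1712), and 44.6% of IDR peaks were stronger. The summit lay between F26A1.1, which begins 185 bp away and runs towards ced-4, and nonu-1, an RNA surveillance endonuclease gene that begins 415 bp away on the minus strand. F26A1.1 ends 415 bp before the start of ced-4. If that gap were allowed within an operon, ced-4 would count as having an IDR peak, and the count would be 2 of 5 against 24.2% of all genes. The same allowance would also make ced-13 an operon gene, 373 bp after inx-5, without adding an IDR peak there. The ced-4 record begins at its start codon, so its true 5′ end may lie further upstream.

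Within the rule ced-4 had weak peaks that differed between the lists. The pooled summit lay in a coding exon 973 bp from the 5′ end (signal 12.6, rank 19790, −log10 q 0.24), with no summit within 200 bp in either replicate. Replicate 1 had summits at 987 bp upstream, inside F26A1.1 (signal 2.11, rank 23113), and 2607 bp into the gene (signal 5.22, rank 10490). Replicate 2 had a summit 413 bp upstream (signal 7.12, rank 29211). Each replicate had a peak, but at different places.

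The order of the upstream peaks of ced-3 and ced-4 changed with the replicate. In replicate 1 ced-4 ranked ahead of ced-3 (1346 and 2178), and in replicate 2 ced-3 ranked ahead of ced-4 (1201 and 2002). The ced-9 peak was ahead of both in each replicate. The larger replicate rank was 2.01 times the smaller at ced-9, 1.81 times at ced-3 and 1.49 times at ced-4, and the median over 3723 IDR peaks matched in both replicates was 1.36. The peaks of ced-9 and ced-3 ranked higher in replicate 2 and that of ced-4 in replicate 1, and 16.7%, 21.9% and 39.5% of the matched IDR peaks differed more between replicates than those of ced-9, ced-3 and ced-4.

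**Figure D2:**
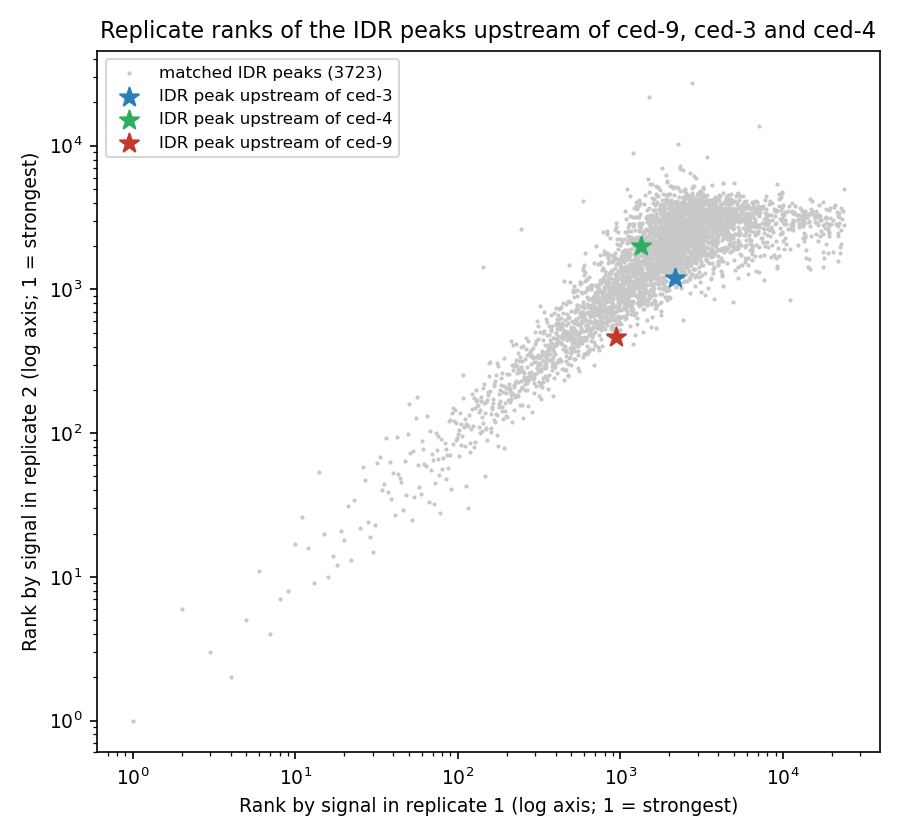
Rank by signal in replicate 1 (x axis, log) and replicate 2 (y axis, log) of 3723 IDR peaks matched in both, with the peaks upstream of ced-9, ced-3 and ced-4 as stars. The ced-9 star is nearest to the strong end, at ranks 938 and 467, and those of ced-3 and ced-4 lie on opposite sides of the diagonal.

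egl-1, the BH3-only trigger of somatic cell death, had no peak under the rule in any of the 4 lists. egl-1 lies on chromosome V (WBGene00001170, 14431308 to 14432359, minus strand). The nearest summit upstream was in replicate 2 alone, 1545 bp upstream, with a signal of 7.36, a rank of 27992 and a −log10 q of 0.13. egl-1 is known for control elements spread over a long stretch on both sides of the gene, so peaks up to 10 kb away were also listed. Within 10 kb of the 5′ end there were 6 pooled peaks, against a genome average of 5.98 per 20 kb. The only IDR peak among them (14423276 to 14423599, signal 81.8, rank 2833) lay 8921 bp downstream of the 5′ end and 134 bp from the start of rpoa-12, an RNA polymerase I subunit gene. Replicate 2 had a summit within 200 bp of it (rank 3103). Replicate 1 had a peak that overlapped it (14423520 to 14423783, signal 14, rank 3613). Its summit, 8707 bp downstream of the 5′ end, lay beyond the 200 bp used to match summits. It was matched instead to a separate weak pooled peak 8718 bp downstream (signal 13.8, rank 17334), which had no match in replicate 2. The next strongest pooled peak after the IDR peak, of signal 47.1 and rank 4407, lay 7065 bp downstream and 286 bp from the start of rrsr-1. The only one upstream, 4014 bp from the 5′ end, had egl-1 as its nearest gene start, a signal of 15.3 and a rank of 14904, and replicate 1 had no summit within 200 bp of it.

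ced-13, the other BH3-only gene, had 1 weak peak in 1 replicate under the rule. ced-13 lies on chromosome X (WBGene00000427, 8299119 to 8299654, minus strand). Its single peak was in replicate 2, with the summit 910 bp from the 5′ end and past the 3′ end of this short gene (signal 8.09, rank 24823, −log10 q 0.17). No IDR peak lay within 10 kb, and the 8 pooled peaks there had signals from 9.45 to 25.7. The strongest, 9860 bp upstream, was at rank 7543 of 30000. One of the 8 peaks was matched in both replicates, 3284 bp upstream of ced-13 (ranks 7342 and 6399, pooled signal 19.1). It lay 539 bp from the start of inx-5, a gap junction gene. inx-5 lies 373 bp before ced-13 on the same strand. With operon gaps up to 500 bp this peak could count for ced-13 through inx-5. The nearest IDR summit to ced-13 was 12712 bp away, 307 bp from the start of sec-16A.2.

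Counts under the rule in the weaker lists were near those of all genes. Pooled peaks were found at 3 of 5 death genes (ced-3, ced-4 and ced-9) and at 61.1% of protein-coding genes. Replicate 1 peaks were found at 2 of 5 (ced-4 and ced-9) and at 58.9% of genes, and replicate 2 peaks at 4 of 5 (all but egl-1) and at 61.6%. Peaks in both replicate lists were found at 2 of 5 (ced-4 and ced-9) and at 45.7%. These lists go down to weak peaks, which most genes have, and the counts show nothing about the death genes beyond that background.

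An IDR summit up to 2500 bp upstream was present at 3 of 5 death genes (ced-3, ced-4 and ced-9) and at 4284 protein-coding genes (21.4%). The distance of 2500 bp was chosen after the positions were seen, so it fixes the count and lends it no weight. Counting either direction, 17.4% of genes had an IDR summit nearer to the 5′ end than ced-9, 22.6% than ced-3, 22.8% than ced-4, 49.2% than egl-1 and 58.9% than ced-13. The median gene lay 9179 bp from the nearest IDR summit, so egl-1, at 8921 bp, was close to the median, and ced-13, at 12712 bp, lay farther. Both of these summits were downstream. Upstream, the nearest IDR summit was 24460 bp from egl-1 and 68664 bp from ced-13, against a median of 16691 bp. A nearer upstream summit was found at 59.5% of genes for egl-1 and 84.7% for ced-13.

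**Figure D3:**
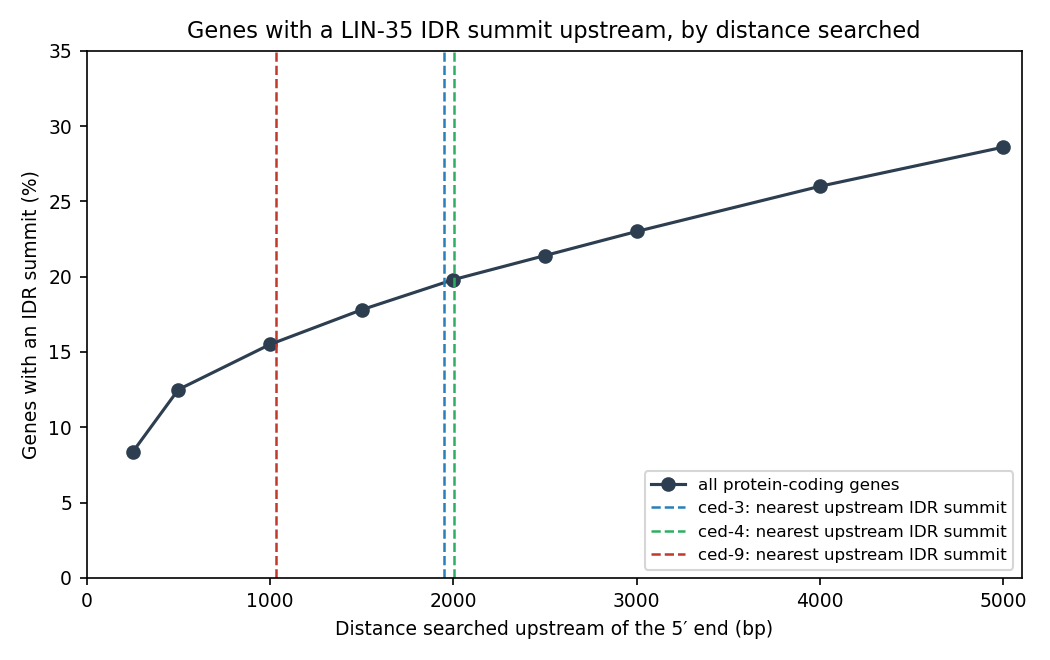
Share of protein-coding genes (y axis, percent) with an IDR summit within a given distance upstream of the 5′ end (x axis, bp), with dashed lines at the nearest upstream IDR summits of ced-9 (1030 bp), ced-3 (1949 bp) and ced-4 (2003 bp). The share of all genes is 15.5% at 1000 bp and 21.4% at 2500 bp, and egl-1 and ced-13 lie beyond the axis.

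Motifs of the DREAM complex, in which LIN-35 acts with E2F/DP and LIN-54, were searched on both strands within 150 bp of the summits. The E2F-type motifs TTCCCGC, then TTGGCGC, then TTCGCGC and lastly TTGCCGC had no match at the peaks of ced-9, ced-3 or ced-4, whether at the strong peaks or at the strongest weak peak inside ced-3 and ced-4. Of all IDR summits 21.2% had such a match, of all pooled summits 12.1% and of all protein-coding 5′ ends 8.17%. The CHR-type motifs TTTGAA and TTCGAA, of the kind LIN-54 binds, had at least 1 match at all 5 of these summits. A match was present at 58.2% of IDR summits, 59.6% of pooled summits and 65.8% of 5′ ends, so these short motifs are common everywhere.

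The CHR-type matches nearest to the 3 strong summits, or of the palindromic form, are shown with the match in capitals. On the plus strand TTTGAA read from the other strand appears as TTCAAA.
ced-9, operon start, chrIII:10334130-10334159: ctgacgcatctcTTCAAAcgagacgcgctg
ced-3, upstream, chrIV:13206038-13206067: aacacacgaatgTTCGAAcgtttgtttttg
ced-4, upstream, chrIII:4850372-4850401: tattcccggcaaTTCGAAttgcaaagcgga
ced-4, upstream, chrIII:4850278-4850307: tacacttttaaaTTCAAAaaataaacaaaa
The centre of the ced-9 match lay 3 bp from the summit, and 2 further matches lay 91 bp to its left and 77 bp to its right. At ced-3 the only match, of the palindromic form, lay 33 bp to the left. At ced-4 the matches shown lay 65 bp to the right and 29 bp to the left of the summit, and a further one 58 bp to the left. A match is a stretch of letters and was not tested as a binding site.

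Around the core, other genes of the cell death pathway were grouped in 5 lists of 88 genes, chosen with earlier results of these data known. An IDR peak under the same rule was found at 29 of the 88 (33.0%), against 20.4% of all genes, and the median rank of those peaks was 917, against 1426.5 over all genes with an IDR peak. Germline apoptosis regulators and the DNA damage input to them had 10 of 23, specification genes 5 of 16, engulfment genes 6 of 19, corpse DNA degradation and clearance genes 5 of 17, and caspase relatives with CED-9 or CED-4 partners 3 of 13.

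The strongest peaks of the 5 lists were in the germline and damage list. They were those of cgh-1, a germline RNA helicase (signal 1608, rank 34), hpr-17, the checkpoint clamp loader subunit (signal 1467, rank 51), mrt-2, a checkpoint clamp subunit (signal 1191, rank 98), and chk-1, the checkpoint kinase (signal 572, rank 352). The replicate ranks were 35 and 44 for cgh-1, 72 and 45 for hpr-17, 106 and 96 for mrt-2 and 350 and 367 for chk-1. The summit of hpr-17 was 102 bp upstream and the gene shared it with F32A11.1, 180 bp away. That of cgh-1 was 797 bp upstream and 842 bp from the start of C07H6.9. cep-1, the p53-like factor that acts on egl-1 and ced-13, had no IDR peak (strongest pooled signal 26.8, rank 7207). Neither did the germline genes gld-1, daz-1, lip-1 and gla-3, whose pooled signals were from 10.4 to 15.0. These 5 genes were named after their values were seen. In the same list hus-1 and clk-2, also named after their values were seen, had no IDR peak (strongest pooled signals 18.1 and 13.9).

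Among genes that decide which cells die, the strongest peaks were those of pig-1, a kinase for unequal divisions (signal 433, rank 492), dnj-11, a J-domain protein gene (signal 405, rank 530), grp-1, an Arf exchange factor (signal 235, rank 990), and eor-1, a zinc finger factor (signal 145, rank 1626). The pig-1 peak ranked 510 and 505 in the replicates. Its summit lay 159 bp upstream, with no other gene start within 4193 bp. The dnj-11 summit lay 276 bp from dnj-11 and 195 bp from the start of F38A5.2. The grp-1 summit lay 170 bp from grp-1 and 60 bp from the start of K06H7.7. Both were thus nearer to another gene. ces-1 and hlh-3, direct regulators of egl-1 in particular neurons or their sisters, had no pooled peak, and hlh-2 and ces-2 had weak ones (signals 13.6 and 17.8); these 4 genes were named after their values were seen.

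In the engulfment list the strongest peaks were at ced-5, a Rac exchange factor subunit (signal 198, rank 1188), ced-7, an ABC transporter (signal 145, rank 1615), dyn-1, dynamin (signal 142, rank 1670), and unc-73, a Trio-type exchange factor (signal 103, rank 2334). The ced-7 and unc-73 summits lay 9018 and 11102 bp inside these genes, far from the 5′ end. In the clearance list they were at rab-7 (signal 480), ccz-1, part of the RAB-7 exchange factor (signal 430), crn-1, the FEN-1 nuclease (signal 333), and rab-5 (signal 271). In the list of caspase relatives and partners, icd-1, a nascent polypeptide-associated subunit (signal 340, rank 640), stood above drp-1, the mitochondrial fission dynamin (signal 74.9), and cnt-1, a CED-3 substrate (signal 74.8). The drp-1 summit lay 15 bp from the start of fem-1. The rab-7 summit lay 788 bp upstream of rab-7 and 175 bp from the start of W03C9.5. The ccz-1 summit lay 135 bp upstream of ccz-1 and 153 bp from the start of tag-65. The ced-5 summit lay 203 bp upstream of ced-5 and 250 bp from the start of F01D4.5. The caspase relatives csp-1, csp-2 and csp-3, named after their values were seen, had no IDR peak, with pooled signals of 11.6, 11.8 and 9.63, close to the 13.4 of ced-3 under the rule.

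**Figure D4:**
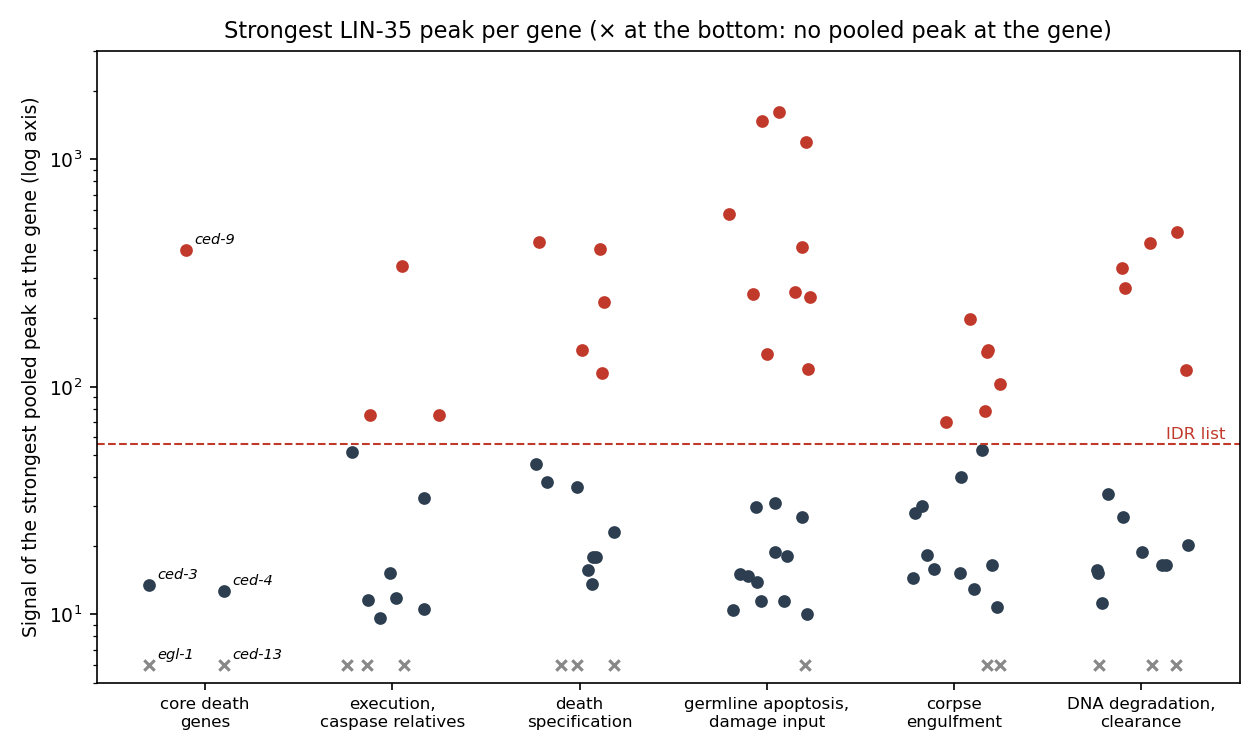
Signal of the strongest pooled peak under the rule for each gene (y axis, log), for the core death genes and 5 lists of pathway genes. Red points are IDR peaks, the dashed line is the lowest IDR signal of 56.0, and crosses at the bottom are genes with no pooled peak. ced-9 stands at 398 with ced-3 and ced-4 at 13.4 and 12.6, and the highest points, at 1191 to 1608, belong to the germline apoptosis and damage list.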

How the data were processed

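LIN-35 ChIP-seq peak lists in ce11 were used: 1 for each of the 2 replicates, 1 pooled and 1 IDR list. Per the submitters' deposited file manifest, replicate and pooled lists were called against a control alignment, and the IDR list was made from the other 3. No source used here names the caller, the aligner or the IDR threshold. Control reads were not used here. The authors' deposited signal value of each peak ranks peaks within its list only. The deposited −log10 q-value was quoted as it stands. The IDR list was checked to be the 3838 strongest of 30000 pooled peaks. Of the ce10 lists, only the IDR list was used, for its size and lowest signal. Read depth is unknown, so no interval that needs it was given, and n is 2.

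Summit was the start plus the peak offset, in 1-based WBcel235 coordinates. Genes were protein-coding genes of Ensembl release 115 on 6 nuclear chromosomes, read with Python 3.11.15. An operon gene began at most 100 bp after a same-strand gene, which held for 785 genes. The limit was set with the member positions known. Peaks of different lists were matched at summits within 200 bp. Of 89 listed symbols, 88 matched. Named genes were the members, the genes at their peaks and up to 4 genes a list with the strongest IDR peaks. The 2 genes most like ced-9, among those that do not share its peak, were also named. ced-9 was the only member with its strongest pooled peak matched in both replicates. Genes named only as neighbours of a peak or gene described here carry no mark. Other genes named outside this rule are marked in the text as named after their values were seen. The members and lists were chosen with earlier results of these data known. The code that assigns peaks was tested on simulated data. Alternatives varied the window, gene body, 5′ end, operon rule, peak overlap, list depth, replicate and motif window.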

Additional observations from a re-analysis of the deposited data

How the results depend on the processing

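The IDR call at ced-9 held with 500 bp in place of 1000, without the gene body, at any transcript start, by peak overlap and among the stronger 1919 IDR peaks, and 1 of 5 genes was called in each. All genes stood at 17.3% with 500 bp, 18.7% without the gene body, 15.0% with both changes, 20.6% at any transcript start and 21.6% by overlap. Without replicate 1 or without replicate 2, using the 3838 strongest peaks of the other, the count was also 1, and the pathway lists had 28 and 29 of 88 and all genes 4095 and 3957. The settings given so far all kept the operon start, which is 135 bp from the ced-9 summit. That peak had rank 537 in the IDR list and ranks 938 and 467 in replicates 1 and 2. With that position and those ranks none of these settings could have lost the call. Without the operon start the count of the 5 genes was 0, since the ced-9 summit is 1030 bp from the gene's own record, and all genes stood at 19.0%. Settings added after seeing the data gave 2 with operon gaps up to 500 bp (ced-4 and ced-9), 2 within 2000 bp (ced-3 and ced-9) and 3 within 2500 bp (ced-3, ced-4 and ced-9), where all genes stood at 24.2%, 25.1% and 27.2%. The stronger 1919 peaks called 2530 of all genes (12.7%). Pooled peaks were left at 1 gene, ced-9, within 500 bp of the 5′ end alone and at or above the median pooled signal. Peaks in both replicate lists were left at 1, ced-9, within 500 bp of the 5′ end alone and in the upper part of each replicate list. These losses follow from dropping weak or more distant peaks. In ce10 the IDR list held 4839 peaks with a lowest signal of 41.8, and under the rule no pooled peak of the 5 genes lay between that signal and 56.0. The pathway count of 29 ranged from 20 (22.7%, against 15.0% of all genes, within 500 bp of the 5′ end alone) to 40 (45.5%, against 27.2%, within 2500 bp). A motif match at the strongest pooled peak was kept at 2 of the 3 genes that have one, ced-3 and ced-9, within 50 or 100 bp. No paired analysis was possible because there is a single group. Depth is unknown, so the absence of a peak at egl-1 does not show the absence of binding.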
